A study of Mus musculus with 8 samples.

Results

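The 30 genes described here make cholesterol, sense it, or carry it within and out of the cell. They were taken by name from a table of 54532 genes, and all 30 were present and had enough reads to be tested. By role they comprised 8 genes of the steps from acetyl-CoA to the isoprenoid diphosphates, 11 genes of the squalene and sterol steps, 5 genes of the SREBP system, and 6 genes around the LXR receptors, which cover export, a sterol carrier and an LXR-induced ubiquitin ligase. The samples were mRNA libraries of sorted mouse bone marrow cells, 3 from AML1/ETO mice, labelled with the genotype Runx1-Runx1t1, and 5 from Control mice, labelled WT, all of strain C57BL/6. AML1/ETO is the fusion of the transcription factor RUNX1 with the corepressor-binding protein RUNX1T1 that occurs in acute myeloid leukaemia. The cells were labelled as LSK cells, which by definition lack lineage markers and carry Sca-1 and c-Kit. That is the surface profile of blood stem and early progenitor cells. Mice of both groups had been injected with poly(I:C), a synthetic double-stranded RNA used to switch on Mx1-Cre alleles, at 5 mg/kg on 4 occasions on alternate days, and cells were sorted 4 weeks later. They were kept in serum-containing DMEM around the sort. The labels name neither the Cre line nor the promoter of the fusion allele nor the age of the mice, and they do not say that libraries of a group came from separate animals, so the p-values measure the spread between these libraries.

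Cholesterol is built from acetyl-CoA through mevalonate, farnesyl diphosphate, squalene and lanosterol. When sterols in the endoplasmic reticulum are scarce, SCAP escorts the SREBP transcription factors to the Golgi for cleavage, and the released factors switch on nearly every synthesis gene and lipoprotein uptake. When sterols are plentiful, INSIG proteins hold SCAP back, and oxysterols activate the LXR receptors, which switch on the exporters ABCA1 and ABCG1 and the ubiquitin ligase MYLIP, which limits lipoprotein uptake. In mouse blood stem and progenitor cells, ABCA1 and ABCG1 are known to restrain proliferation by removing membrane cholesterol.

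Library totals were 14693080 to 16433454 reads in AML1/ETO and 16374232 to 17527043 in Control. Levels are given as CPM (read counts scaled to a common library size) with TMM factors, and a gene was called higher or lower at an adjusted p under 0.05 in edgeR's quasi-likelihood test over 15009 genes. Runx1t1 reads were at 53.9 to 123 CPM in AML1/ETO and 1.58 to 7.68 CPM in Control. All AML1/ETO libraries carried the X-inactivation transcript Xist (28559 to 33151 reads, against 0 to 111 in Control) and no reads of the Y-linked Ddx3y (0, against 3688 to 5038 in Control), so genotype and sex cannot be told apart. Of 11 LSK markers, 9 were higher and 1 lower in AML1/ETO; Kit was at 913 to 1697 CPM in AML1/ETO and 378 to 469 in Control, and Ly6a, which encodes the sort marker Sca-1, was at 221 to 921 CPM in AML1/ETO but only 8.26 to 23.4 in Control. Mast cell markers summed to 2481 to 6779 CPM in AML1/ETO and 22.8 to 64.7 in Control, with 5 of 5 tested higher. Of these, Cma1 had 0 reads in every Control library and could only have been called higher. Proliferation genes summed to 1111 to 1934 CPM in AML1/ETO and 3251 to 3751 in Control, with 12 of 15 lower. B and plasma cell markers summed to 5.30 to 10.8 CPM in AML1/ETO and 77.1 to 222 in Control, with 4 of 6 tested lower. These 4, Cd79a, Ebf1, Pax5 and Ighm, had 0 reads in every AML1/ETO library. They were brought into the test by Control alone and could not have been called higher. Neutrophil markers summed to 0.0654 to 62.6 CPM in AML1/ETO and 119 to 283 in Control, with 3 of 6 tested lower. Of these 3, Cxcr2 also had 0 reads in every AML1/ETO library. Erythroid markers summed to 15.3 to 71.1 CPM in AML1/ETO and 2.98 to 41.5 in Control, with 1 of 6 tested higher. The higher one was Hbb-bt, at 2.73, 13.5 and 61.5 CPM in AML1/ETO and at most 0.117 in Control. Of the uncalled ones, Hba-a1, Hbb-bs and Epor had log2 fold changes below 0 (-1.47, -1.47 and -0.75), and Alas2 and Klf1 above 0 (2.08 and 0.25). Over all genes, 14.2% were called lower and 11.6% higher. What part these shifts in cell markers, cycling and sex have in the values below was not tested. In bulk libraries, fewer cells of a type and less RNA per cell cannot be told apart. AML1/ETO library 1 and Control library 1 lay apart from the rest of their groups on the second principal component (13.5% of the variance), and where leaving out either or both changes a call among the 30 genes, the value without them is given too.

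To show what sequence lies at these genes, the starts of 4 synthesis genes that were called lower are printed from RefSeq (GRCm38.p6), from 250 bases before to 50 bases after the start, 5′ to 3′ on the strand of the gene. These are the 4 called synthesis genes with the smallest p that have an entry and hold a searched motif. Capitals mark matches to the SREBP element core TCACNCCAC and to the NF-Y box CCAAT, which reads ATTGG when it lies on the other strand. The windows are Hmgcs1 at chr13:119690101-119690400 on the plus strand, Cyp51 at chr5:4104648-4104947, Sc5d at chr9:42264251-42264550 and Msmo1 at chr8:64733529-64733828, the last 3 on the minus strand.
Hmgcs1: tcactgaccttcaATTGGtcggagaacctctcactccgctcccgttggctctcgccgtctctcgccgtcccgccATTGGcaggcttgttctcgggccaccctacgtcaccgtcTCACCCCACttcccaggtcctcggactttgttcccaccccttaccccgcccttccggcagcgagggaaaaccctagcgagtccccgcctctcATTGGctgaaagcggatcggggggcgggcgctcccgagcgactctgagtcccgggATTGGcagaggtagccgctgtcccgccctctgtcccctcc
Cyp51: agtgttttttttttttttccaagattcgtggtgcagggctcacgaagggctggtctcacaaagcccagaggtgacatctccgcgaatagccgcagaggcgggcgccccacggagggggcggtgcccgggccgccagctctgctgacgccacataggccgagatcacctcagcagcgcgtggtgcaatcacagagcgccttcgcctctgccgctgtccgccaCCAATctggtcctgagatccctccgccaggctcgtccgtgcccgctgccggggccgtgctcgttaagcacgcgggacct
Sc5d: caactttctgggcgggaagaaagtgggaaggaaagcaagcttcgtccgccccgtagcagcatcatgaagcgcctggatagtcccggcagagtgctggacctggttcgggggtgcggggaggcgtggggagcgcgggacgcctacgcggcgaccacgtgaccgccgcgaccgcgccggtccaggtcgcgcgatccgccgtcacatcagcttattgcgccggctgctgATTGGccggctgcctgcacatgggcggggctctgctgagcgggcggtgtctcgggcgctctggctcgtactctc
Msmo1: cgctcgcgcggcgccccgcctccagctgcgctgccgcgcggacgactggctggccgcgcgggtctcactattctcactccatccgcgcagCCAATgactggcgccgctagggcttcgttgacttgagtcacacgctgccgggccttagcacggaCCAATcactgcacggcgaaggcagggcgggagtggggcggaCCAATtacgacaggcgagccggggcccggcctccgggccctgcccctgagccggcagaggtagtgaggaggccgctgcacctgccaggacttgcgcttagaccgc

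Hmgcs1 held the only SREBP core found among the cholesterol genes, TCACCCCAC, with its first base at position -137 from the start, and 4 NF-Y boxes around it, at -237, -176, -45 and 10. Msmo1 held 3 NF-Y boxes, at -160, -96 and -55, and Cyp51, at -29, and Sc5d held 1 each. Of the 30 genes, 25 had a promoter entry, with 34 windows among them. An NF-Y box on either strand stood in 21 of these 34 windows (61.8%), against 37.4% of all 32851 windows in the table. Per gene, 20 of 25 held one (80.0%), against 41.1% of 27025 genes, and among the synthesis genes it was 15 of 16. All 7 lowered genes with an entry held one, as did 13 of the 17 uncalled genes, so the box was common in both. The window of Nr1h2, the gene called higher, held none of the 3 motifs. The SREBP core stood in 1 of the 34 windows (2.94%) and in 1.24% of all windows, and the LXR repeat of AGGTCA spaced by 4 bases in 0 of the 34 and in 5 of all windows. These letter matches describe the windows and show no binding.

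Of the 30 genes, 10 were lower in AML1/ETO, 1 was higher and 19 did not pass the test. Fdps, 1 of the lower genes, had 0 reads in every AML1/ETO library and could only have been called lower. Of all genes tested, 846 had 0 reads in every AML1/ETO library. Over all 15009 genes, 14.2% were called lower and 11.6% higher (25.7% in either direction), so 33.3% lower among the cholesterol genes stood above the background and 3.33% higher stood below it. The median log2 fold change was -0.50 over the 30 genes and -0.09 over all genes. In 13 genes every AML1/ETO library lay below every Control library, which held for 17.5% of all genes, and in 2 every AML1/ETO library lay above, against 14.1% of all genes. Calls of lower levels were more frequent among genes with more reads: of the 13 genes with a mean of at least 20 CPM over the 8 libraries 7 were lower (53.8%, against 20.3% of all genes at that level), and of the 17 under 20 CPM 3 were lower (17.6%, against 7.92%). Lower genes were found in each of the 4 roles, and the only higher one was the LXR receptor gene Nr1h2.

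**Figure D1:**
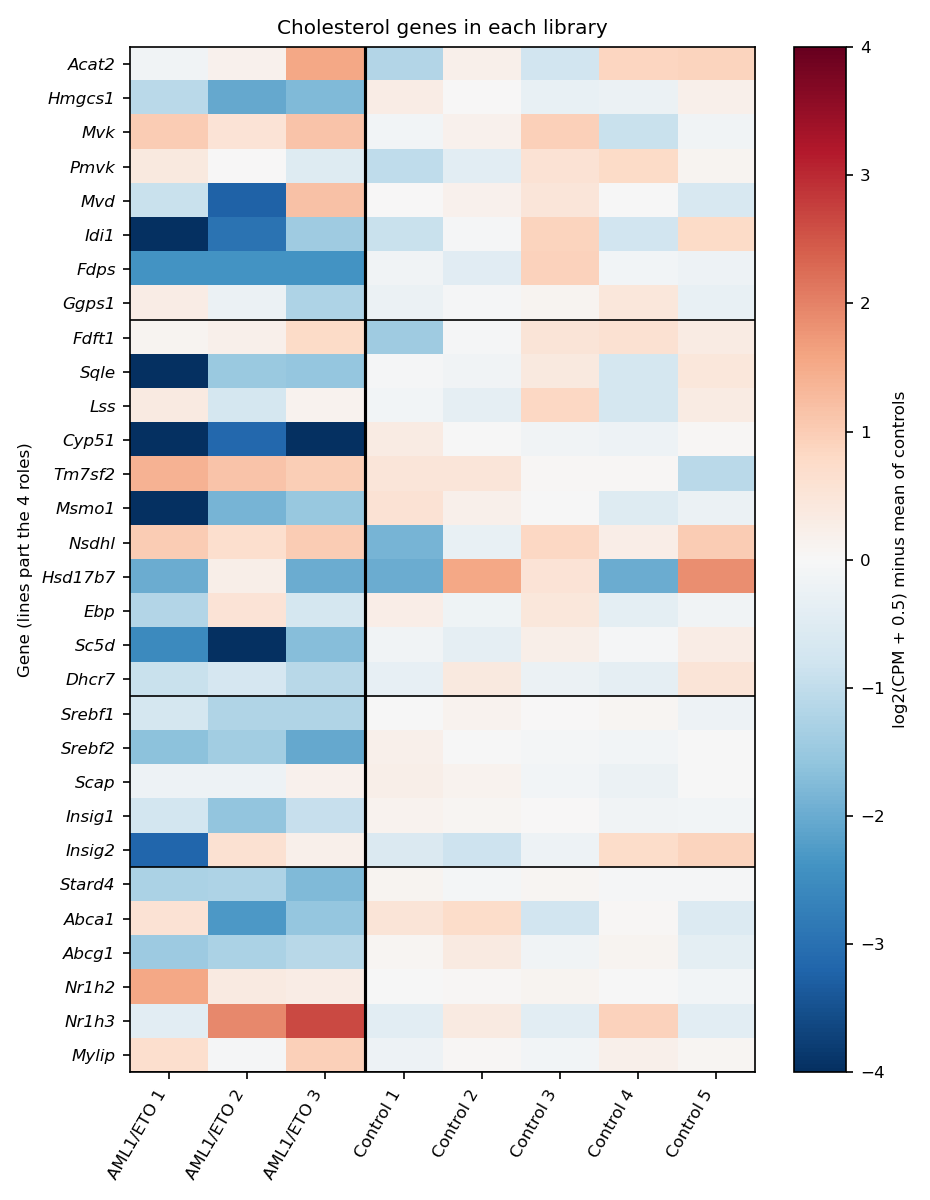
Heat map of the 30 cholesterol genes (rows, in the order of the pathway) in the 3 AML1/ETO and 5 Control libraries (columns), with colour giving log2(CPM + 0.5) minus the mean of the Control libraries. Blue runs through the AML1/ETO columns for Hmgcs1, Fdps, Cyp51, Msmo1, Sc5d, Srebf1, Srebf2, Insig1, Stard4 and Abcg1. It also does so for Idi1, Sqle and Dhcr7, which did not pass the test, while Scap stays near white.

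**Figure D2:**
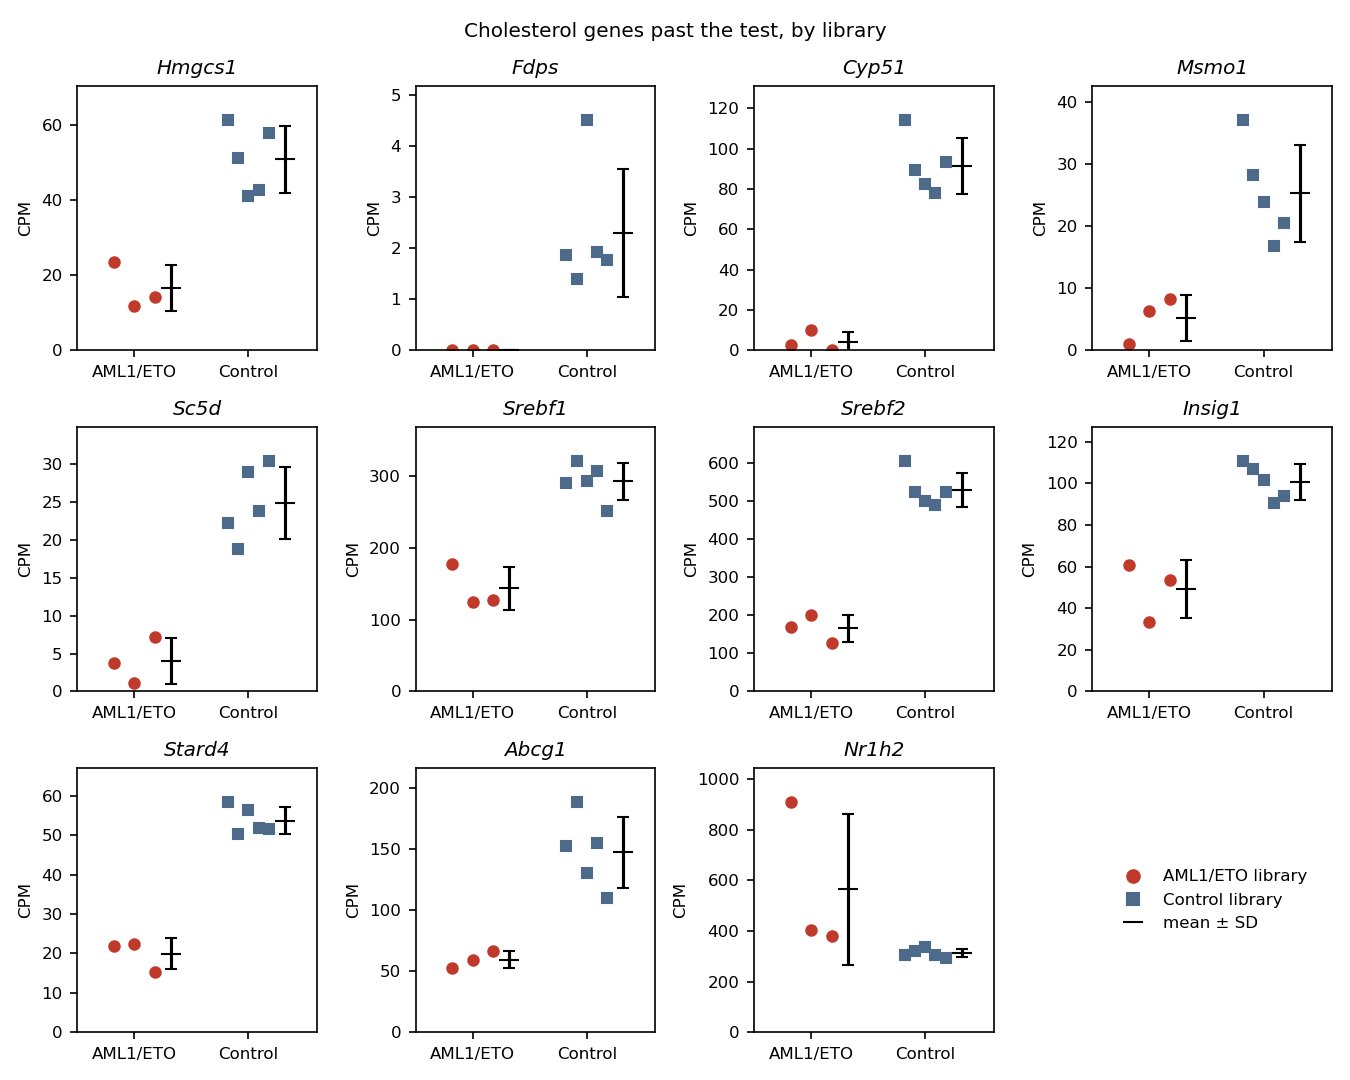
CPM of the 11 called cholesterol genes in each library, with AML1/ETO libraries as circles at the left and Control libraries as squares at the right; bars are mean ± SD (n = 3 and 5), cut at 0 for Cyp51. The groups do not overlap in any panel, and the high mean of Nr1h2 in AML1/ETO comes with 1 library at 908 CPM.

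In the first stage, from acetyl-CoA to farnesyl and geranylgeranyl diphosphate, 2 of 8 genes were lower and none was higher (median log2 fold change -0.22). The lower share was 25%, against 14.2% lower and 11.6% higher over all genes. Hmgcs1, which encodes the HMG-CoA synthase of the cytosol (chr13:119690379-119708260, GRCm38), was at 23.4, 11.8 and 14.3 CPM in the AML1/ETO libraries, against 61.2, 51.1, 41.1, 42.7 and 57.9 CPM in Control. All 3 AML1/ETO values lay below the lowest Control value. The means were 16.5 ± 6.09 CPM in AML1/ETO (SD, n = 3) and 50.8 ± 8.92 CPM in Control (SD, n = 5), a 3.08-fold lower level (log2 fold change -1.62, SE 0.29, edgeR adjusted p = 0.00162). Antisense Gm48342 shares 12.1% of the Hmgcs1 exon bases, and the strand setting of the counting is unknown.

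Fdps, the farnesyl diphosphate synthase gene, had 0 reads in each AML1/ETO library and 32, 24, 82, 33 and 31 reads in the Control libraries (1.87, 1.41, 4.51, 1.92 and 1.78 CPM). With a floor of 3 reads per library, which covers counting error only, its level came out 11.3-fold lower in AML1/ETO (edgeR adjusted p = 0.0172). Fdps was brought into the test by the Control libraries alone and could not have been called higher. Zeros were common at this level: genes for which the other libraries of the same group predict 20 to 50 reads were at 0 in 41.4, 44.3 and 51.1% of cases in the AML1/ETO libraries, against 10.5 to 46.2% in Control, so the fold is not bounded as firmly as the reads alone give. Its counts were low in every library and are uncertain also because Gm43738 shares 26.7% of its exon bases and processed pseudogenes such as Gm3571 match its transcript at 98.9% identity. Idi1, the isomerase between the 5-carbon isoprenoids, was at 0, 0.625 and 2.75 CPM in AML1/ETO, against 4.21, 7.92, 15.6, 4.60 and 14.3 CPM in Control. These groups did not overlap, but the difference did not pass (log2 fold change -3.04, SE 1.18, edgeR adjusted p = 0.0788), and the processed pseudogene Gm13502 matches 684 bases of its transcript at 100%. Under DESeq2 its adjusted p was 0.0148, and without AML1/ETO library 3 edgeR gave -4.84 with an adjusted p of 0.0225. With both first libraries left out it gave -2.66 and 0.0436.

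The other genes of the first stage gave overlapping groups. The mevalonate kinase gene Mvk averaged 9.80 ± 2.05 CPM in AML1/ETO and 5.41 ± 2.79 in Control (log2 fold change 0.85, edgeR adjusted p = 0.329), and Acat2, the thiolase that starts the pathway, 10.5 ± 7.37 CPM in AML1/ETO and 7.22 ± 4.37 CPM in Control (0.54, 0.624). Pmvk, the next kinase, averaged 9.55 ± 2.98 CPM in AML1/ETO and 10.5 ± 4.97 in Control (-0.13, 0.900), and Mvd, the decarboxylase, 4.08 ± 5.40 CPM in AML1/ETO and 4.40 ± 1.29 CPM in Control (-0.11, 0.968). Ggps1, which makes geranylgeranyl diphosphate for protein prenylation, averaged 23.2 ± 11.4 CPM in AML1/ETO and 28.6 ± 6.29 CPM in Control (-0.31, 0.594). Apart from Hmgcs1 and Fdps, no gene of this stage passed the test in either direction. Acat2 shares 97.7% identity over 1477 bases with Acat3, so its reads may be divided between the copies.

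Against a background of 14.2% lower and 11.6% higher, 3 of 11 genes (27.3%) of the squalene and sterol steps were lower. None of the 11 was higher (median log2 fold change -0.96). Their levels summed to 76.5 to 108 CPM in AML1/ETO and 192 to 262 CPM in Control. Cyp51, the lanosterol demethylase (chr5:4081145-4104746), was at 2.57, 9.93 and 0 CPM in the AML1/ETO libraries, against 114, 89.6, 82.6, 77.8 and 93.2 CPM in Control. In reads this was 34, 159 and 0 in AML1/ETO, against 1337 to 1948 in Control. The AML1/ETO values all lay far under the Control range: the means were 4.17 ± 5.16 CPM in AML1/ETO and 91.4 ± 13.9 CPM in Control, 21.7-fold lower (log2 fold change -4.44, SE 0.87, edgeR adjusted p = 0.00294). Without AML1/ETO library 2 the log2 fold change was -6.20 (adjusted p = 2.52e-04). A 0 in a single AML1/ETO library was not rare at such counts: genes for which the other libraries of the same group predict 50 to 150 reads were at 0 in 11.8 to 16.8% of cases in AML1/ETO, with 16.8% in library 3, against 0.388 to 14.8% in Control.

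Msmo1, the C4-methyl sterol oxidase that acts later on the sterol ring (chr8:64718139-64733792), was at 1.06, 6.31 and 8.24 CPM in AML1/ETO, against 37.1, 28.3, 24.0, 16.8 and 20.5 CPM in Control. The highest AML1/ETO value was below the lowest Control value. The means were 5.20 ± 3.72 CPM in AML1/ETO and 25.3 ± 7.82 CPM in Control, 4.85-fold lower (log2 fold change -2.28, SE 0.58, edgeR adjusted p = 0.0132), and with limma-voom and sample quality weights the adjusted p was 0.0543. With both first libraries left out the log2 fold change was -1.63 (edgeR adjusted p = 0.0114). Sc5d, the lathosterol oxidase near the end of the route (chr9:42251595-42264256), was at 3.79, 1.06 and 7.19 CPM in AML1/ETO, against 22.2, 18.8, 28.9, 23.8 and 30.3 CPM in Control. Again no value overlapped, with means of 4.01 ± 3.07 CPM in AML1/ETO and 24.8 ± 4.77 CPM in Control, 6.18-fold lower (log2 fold change -2.63, SE 0.55, edgeR adjusted p = 0.00455; -3.37 without AML1/ETO library 3).

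A pair of further sterol genes lay below Control in every AML1/ETO library without passing the test. Sqle, the squalene epoxidase and a rate-limiting step, was at 0, 6.69 and 6.34 CPM in AML1/ETO, against 18.9, 17.7, 25.8, 11.8 and 27.0 CPM in Control (log2 fold change -2.22, SE 0.94, edgeR adjusted p = 0.104). Without AML1/ETO library 1, which had no Sqle reads, the log2 fold change was -1.64 and the adjusted p 0.0183, and DESeq2 over all libraries gave 0.0488. With both first libraries left out edgeR gave -1.67 with an adjusted p of 0.0214. Dhcr7, which makes the last reduction of a branch to cholesterol, was at 8.56, 10.1 and 7.26 CPM in AML1/ETO, against 13.0, 21.3, 13.7, 12.6 and 23.5 CPM in Control (-0.96, SE 0.40, adjusted p = 0.0974).

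A single sterol gene lay above Control throughout. Tm7sf2, a sterol C14-reductase that acts just after CYP51, was at 13.6, 11.3 and 10.01 CPM in AML1/ETO, against 7.08, 6.92, 5.06, 5.01 and 2.07 CPM in Control. Its groups did not overlap, yet it did not pass (log2 fold change 1.16, SE 0.55, edgeR adjusted p = 0.142), and Vps51 on the same strand shares 12.1% of its exon bases. The 5 remaining genes overlapped between the groups. Fdft1, the squalene synthase, averaged 9.13 ± 2.43 CPM in AML1/ETO and 7.72 ± 3.45 in Control, Lss, which closes the ring to lanosterol, 9.54 ± 3.50 CPM in AML1/ETO and 10.3 ± 4.68 CPM in Control, and the X-linked Nsdhl, a C4-demethylation enzyme, 15.9 ± 2.19 CPM in AML1/ETO and 10.2 ± 6.19 CPM in Control. The X-linked sterol isomerase Ebp averaged 19.1 ± 12.5 CPM in AML1/ETO and 23.4 ± 5.82 in Control, and the sterol ketoreductase Hsd17b7 was at 0 in 2 of 3 AML1/ETO and 2 of 5 Control libraries. Their edgeR adjusted p-values were 0.823, 0.914, 0.482, 0.665 and 0.545 in this order. Fdft1 shares 18.3% of its exon bases with Ctsb on the other strand. Over both stages, 5 of 19 synthesis genes, Fdps among them, were lower (26.3%) and 0 were higher by edgeR (median log2 fold change -0.31). Among all genes edgeR called 14.2% lower and 11.6% higher. At an unadjusted p under 0.05, 8 of the 19 were lower and 0 higher, against 22.3% and 15.8% of all genes. DESeq2 called 7 of the 19 lower and 0 higher, and 12 of the 30 cholesterol genes lower and 2 higher, against 17.1% lower and 14.2% higher over all genes.

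**Figure D3:**
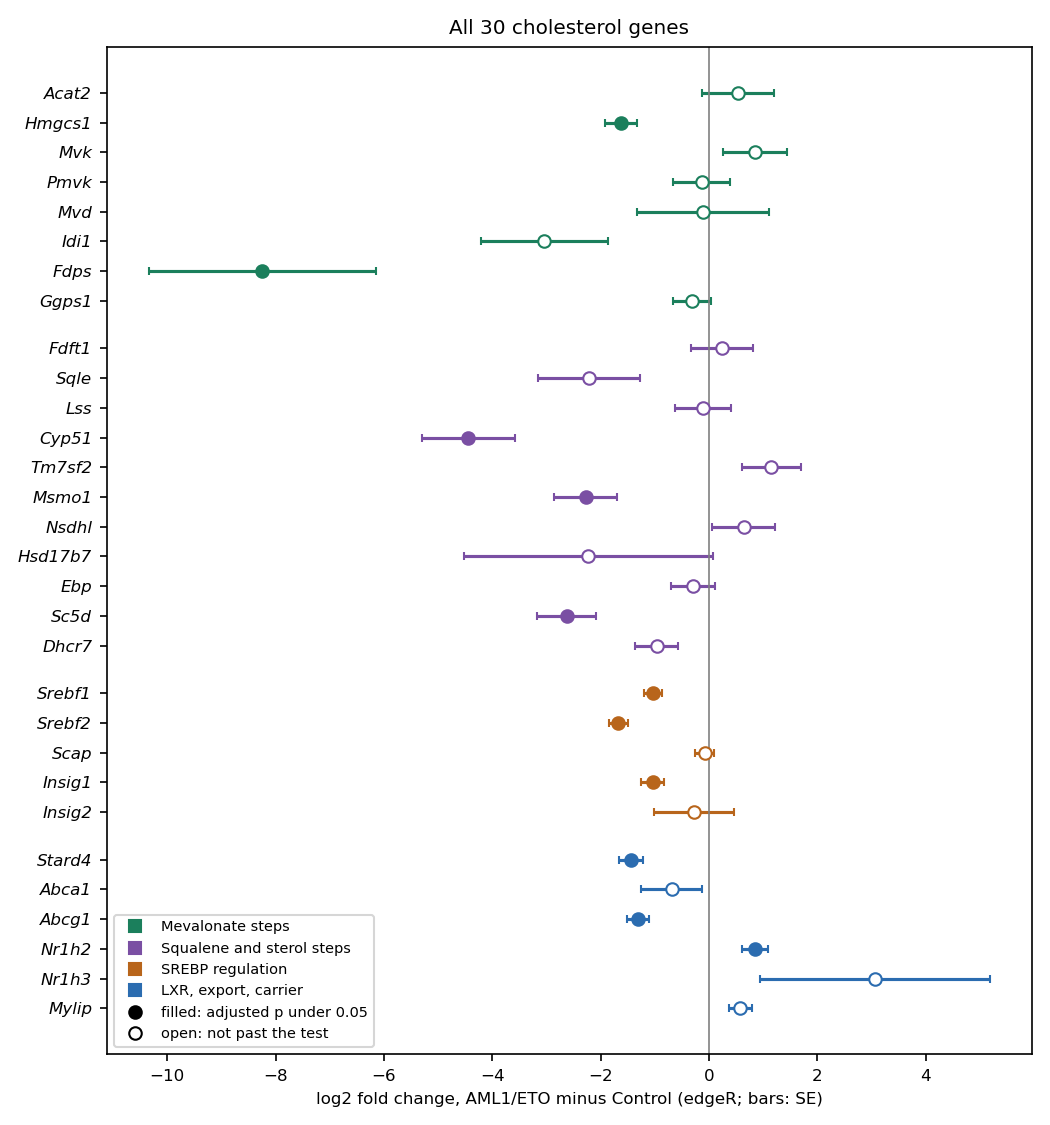
Log2 fold change, AML1/ETO minus Control, of each of the 30 genes in pathway order, with bars of 1 SE from edgeR and filled symbols for an adjusted p under 0.05. Srebf1, Srebf2, Insig1, Stard4 and Abcg1 have short bars well left of 0, Scap lies on 0 and Insig2 has a long bar across it, the synthesis genes scatter more widely, and Fdps, with no AML1/ETO reads, has a fitted value of -8.24 that depends on the prior count.

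The background of lower calls was 14.2% over all genes and 20.3% over genes with a mean of at least 20 CPM. All SREBP genes but Insig2 were at that level. The SREBP system was the role with the largest share of calls, 3 of 5 (60%), all lower (median log2 fold change -1.03). Its summed level was 447 to 501 CPM in AML1/ETO and 999 to 1141 CPM in Control. Srebf2, the master factor of the synthesis genes (chr15:82147181-82205379), was at 168, 199 and 127 CPM in AML1/ETO, against 603, 522, 499, 490 and 522 CPM in Control. Every Control library lay far above every AML1/ETO library. The means were 165 ± 36.1 CPM in AML1/ETO and 527 ± 44.5 CPM in Control, 3.20-fold lower, the smallest adjusted p of the 30 genes (log2 fold change -1.68, SE 0.17, edgeR adjusted p = 4.16e-05). Srebf1, whose product drives mainly fatty acid synthesis (chr11:60199089-60222581), was at 178, 125 and 128 CPM in AML1/ETO, against 291, 321, 293, 308 and 252 CPM in Control. Its groups were also apart, with means of 144 ± 29.7 CPM in AML1/ETO and 293 ± 25.9 CPM in Control, 2.04-fold lower (log2 fold change -1.03, SE 0.17, edgeR adjusted p = 9.28e-04). Per kilobase of exon, Srebf2 stood above Srebf1 in all 5 Control libraries (ratio 1.25 to 1.63) and in AML1/ETO library 2 (1.25), and below it in AML1/ETO libraries 1 and 3 (0.741 and 0.781).

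Insig1, the sterol-dependent anchor of SCAP and itself an SREBP target (chr5:28071363-28078662), was at 60.7, 33.5 and 53.3 CPM in AML1/ETO, against 110, 107, 102, 90.3 and 93.7 CPM in Control. No value overlapped, and the means of 49.2 ± 14.1 CPM in AML1/ETO and 101 ± 8.58 CPM in Control differed 2.05-fold (log2 fold change -1.03, SE 0.21, edgeR adjusted p = 0.00394). Its relative Insig2 varied more than it differed, at 1.06, 20.9 and 15.6 CPM in AML1/ETO and 8.95, 7.39, 11.5, 22.5 and 25.3 CPM in Control (-0.27, SE 0.74, adjusted p = 0.847). Scap, the escort itself, averaged 103 ± 16.5 CPM in AML1/ETO and 109 ± 14.7 in Control, with a log2 fold change of -0.08 (SE 0.17, edgeR adjusted p = 0.817). The precision for Scap was the same as for Srebf1 and Srebf2, at 0.17 log2 units.

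Among the 6 genes of export, sterol carriage and LXR, 2 were lower and 1 was higher (median log2 fold change -0.05). These shares were 33.3% and 16.7%, against 14.2% and 11.6% of all genes. Stard4, a soluble carrier that moves cholesterol between membranes and is an SREBP target (chr18:33199355-33213862), was at 21.9, 22.4 and 15.4 CPM in AML1/ETO, against 58.3, 50.2, 56.4, 51.8 and 51.6 CPM in Control. The groups were tight and far apart, with means of 19.9 ± 3.93 CPM in AML1/ETO and 53.6 ± 3.47 CPM in Control, 2.70-fold lower (log2 fold change -1.43, SE 0.22, edgeR adjusted p = 6.80e-04). Abcg1, the exporter to HDL particles (chr17:31057675-31117988), was at 52.6, 59.6 and 66.5 CPM in AML1/ETO, against 152, 188, 131, 155 and 110 CPM in Control. All AML1/ETO values lay below the lowest Control value; the means were 59.6 ± 6.91 CPM in AML1/ETO and 147 ± 29.1 CPM in Control, 2.47-fold lower (log2 fold change -1.31, SE 0.20, edgeR adjusted p = 6.33e-04).

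Abca1, the exporter to lipid-poor apolipoprotein A-I, depended on a single library. It was at 187, 25.3 and 42.4 CPM in AML1/ETO, against 179, 212, 73.7, 132 and 86.9 CPM in Control. AML1/ETO library 1 lay within the Control range and the other two below all of it. Over all libraries the log2 fold change was -0.69 (SE 0.56, edgeR adjusted p = 0.428), and without AML1/ETO library 1 it was -2.02 (adjusted p = 0.00408). With both first libraries left out it was -1.90 (edgeR adjusted p = 0.0113). The ratio of Abcg1 to Abca1 per kilobase was 0.399, 3.35 and 2.22 in the AML1/ETO libraries, against 1.21 to 2.52 in Control. Macrophage and monocyte markers, cells in which both exporters are prominent, summed to 50.6 to 82.8 CPM in AML1/ETO and 166 to 344 CPM in Control, with 4 of 10 tested lower (Csf1r, Cx3cr1, Ly6c2 and Lyz2) and none higher. Other markers of the list did not follow these. Among the AML1/ETO libraries Adgre1 (4.24 CPM), C1qa (4.24), C1qc (6.89) and Vcam1 (10.8) had reads only in library 1, the library with Abca1 at 187 CPM, and Mrc1 and C1qb, too low to be tested, had reads in AML1/ETO libraries 1 and 3 and in no Control library. Marco was at 0 in all libraries. Cx3cr1 was at 0 in all AML1/ETO libraries and could only have been called lower. Their part in the Abcg1 and Abca1 values was not tested.

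Nr1h2, which encodes LXR-beta (chr7:44549616-44553951), was at 908, 405 and 381 CPM in AML1/ETO, against 307, 322, 338, 306 and 293 CPM in Control. All 3 AML1/ETO libraries exceeded every Control library, but library 1 was far above the other two. The means were 564 ± 298 CPM in AML1/ETO and 313 ± 17.3 CPM in Control, 1.80-fold higher (log2 fold change 0.85, SE 0.25, edgeR adjusted p = 0.0249). Without AML1/ETO library 1 the log2 fold change was 0.32 and the adjusted p 0.0943, and without Control library 5 they were 0.86 and 0.0517. With both first libraries left out edgeR gave 0.31 with an adjusted p of 0.103. Nr1h3, which encodes LXR-alpha, was barely detected, at 0, 2.06 and 3.66 CPM in AML1/ETO and 0, 0.352, 0, 0.757 and 0 CPM in Control (adjusted p = 0.334). Mylip, the ubiquitin ligase, was at 195, 118 and 234 CPM in AML1/ETO, against 105, 126, 112, 139 and 128 CPM in Control. AML1/ETO library 2 lay within the Control range, and the difference did not pass (log2 fold change 0.58, SE 0.21, edgeR adjusted p = 0.0592), although DESeq2 gave an adjusted p of 0.0196.

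Levels can be set against each other only per length. Per kilobase of exon, Nr1h2 was the highest of the 30 genes in both groups, with a mean of 168 CPM per kb in AML1/ETO and 93.4 in Control. In Control it was followed by Srebf2 (73.4), Srebf1 (52.0), Mylip (37.8), Insig1 (32.5) and Cyp51 (20.7). In AML1/ETO the order was Mylip (56.5), Srebf1 (25.5), Srebf2 (23.0), Insig1 (15.9) and Scap (13.9), and Cyp51 stood at 0.944 CPM per kb. The spread of Srebf1 and Srebf2 over the AML1/ETO libraries overlapped, so their order there is not resolved. Among synthesis genes in Control, Cyp51, Hmgcs1 (11.1) and the X-linked Ebp (10.1) were highest.

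Outside the 30 genes, 5 further lists of sterol and lipid genes held 62 tested genes, of which 19 were lower and 5 higher (30.6% and 8.06%; median log2 fold change -0.43). Over all genes the shares were 14.2% lower and 11.6% higher. In the list of other synthesis and SREBP processing genes 3 of 12 were lower (25%) and none higher. Hsd17b12, a ketoacyl-CoA reductase, averaged 30.4 ± 12.5 CPM in AML1/ETO and 81.7 ± 19.4 CPM in Control (log2 fold change -1.43, edgeR adjusted p = 0.00625). Its groups did not overlap, with AML1/ETO libraries at 16.2, 39.8 and 35.1 CPM, against 51.7, 90.8, 86.5, 76.0 and 103 CPM in Control.

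Uptake, storage and trafficking was the list with the most calls, 8 of 16 lower and 2 higher (median log2 fold change -0.64). That is 50% lower and 12.5% higher, against 14.2% and 11.6% of all genes. Among all genes with a mean of at least 20 CPM, 20.3% were lower. The lipoprotein receptors Vldlr and Lrp8 were both lower, at 15.2 ± 10.7 CPM in AML1/ETO and 146 ± 19.7 in Control for Vldlr (-3.25, edgeR adjusted p = 2.90e-04), and 21.9 ± 11.02 CPM in AML1/ETO and 149 ± 18.1 CPM in Control for Lrp8 (-2.76, 1.53e-04). Of the enzymes of cholesteryl esters in this list, Soat1 and Lipa were lower and Nceh1 was higher. Soat1, which makes the esters, averaged 5.31 ± 1.98 CPM in AML1/ETO and 32.1 ± 5.40 in Control (-2.59, SE 0.36, edgeR adjusted p = 3.15e-04). Lipa, the lysosomal hydrolase that cleaves them, averaged 16.4 ± 7.49 CPM in AML1/ETO and 36.3 ± 5.03 CPM in Control (-1.15, SE 0.34, edgeR adjusted p = 0.0279), and was named after its value was seen. Nceh1, another hydrolase that cleaves them, was at 241, 241 and 174 CPM in AML1/ETO, against 23.7, 51.5, 38.1, 57.4 and 47.3 CPM in Control (2.33, SE 0.25, adjusted p = 6.21e-05). No AML1/ETO library overlapped with Control for any of these 3 genes.

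Of 9 tested LXR targets and partners, 2 were higher and 1 was lower (median log2 fold change 0.02), and Apoc1 and Pltp had no reads. The shares were 22.2% higher and 11.1% lower, against 11.6% and 14.2% of all genes. Rxra, the partner of LXR in its DNA-bound dimer, averaged 57.2 ± 7.83 CPM in AML1/ETO and 12.7 ± 1.70 in Control (2.17, edgeR adjusted p = 5.47e-05). Lpcat3, a phospholipid-remodelling LXR target, averaged 119 ± 56.1 CPM in AML1/ETO and 47.4 ± 7.88 CPM in Control (1.33, 0.00296). Smpdl3a did not pass (-0.95, 0.0783), but did without AML1/ETO library 1 (-1.41, 0.0161) and with both first libraries left out (-1.53, 0.00883). The called LXR genes named here did not share a direction. The receptor gene Nr1h2 and the partner gene Rxra were higher, but Nr1h2 lost its call without AML1/ETO library 1. Of the called targets named, Lpcat3 was higher and Abcg1 was lower.

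In the fatty acid arm of SREBP1, 4 of 12 tested genes were lower and 1 was higher (median log2 fold change -0.80). That made 33.3% lower and 8.33% higher, against 14.2% and 11.6% of all genes. The desaturase genes accounted for most of the falls: Fads1 averaged 51.8 ± 11.7 CPM in AML1/ETO and 117 ± 20.02 in Control (-1.18, edgeR adjusted p = 0.00177), Scd2 335 ± 61.9 CPM in AML1/ETO and 676 ± 125 CPM in Control (-1.02, 0.00198), and Fads2 9.53 ± 5.52 CPM in AML1/ETO and 51.1 ± 18.9 CPM in Control (-2.42, 0.00269). Acaca, the first committed enzyme, was lower too (-1.17, 0.0176), without a call in 4 of 18 alternatives. Of 13 users of mevalonate products, 3 were lower and none was higher (median log2 fold change -0.04). The lower share was 23.1%, against 14.2% of all genes. The 3 lower genes were Pdss1, for the tail of ubiquinone (-1.49, edgeR adjusted p = 0.0257), Nus1, for dolichol (-0.85, 0.0302), and Fnta, a prenyltransferase subunit (-0.73, 0.0327). All 3 lost their calls in 6, 7 and 9 of 18 alternatives in this order. Pdss2, the next gene of that list by p, did not pass (1.75, 0.230).

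**Figure D4:**
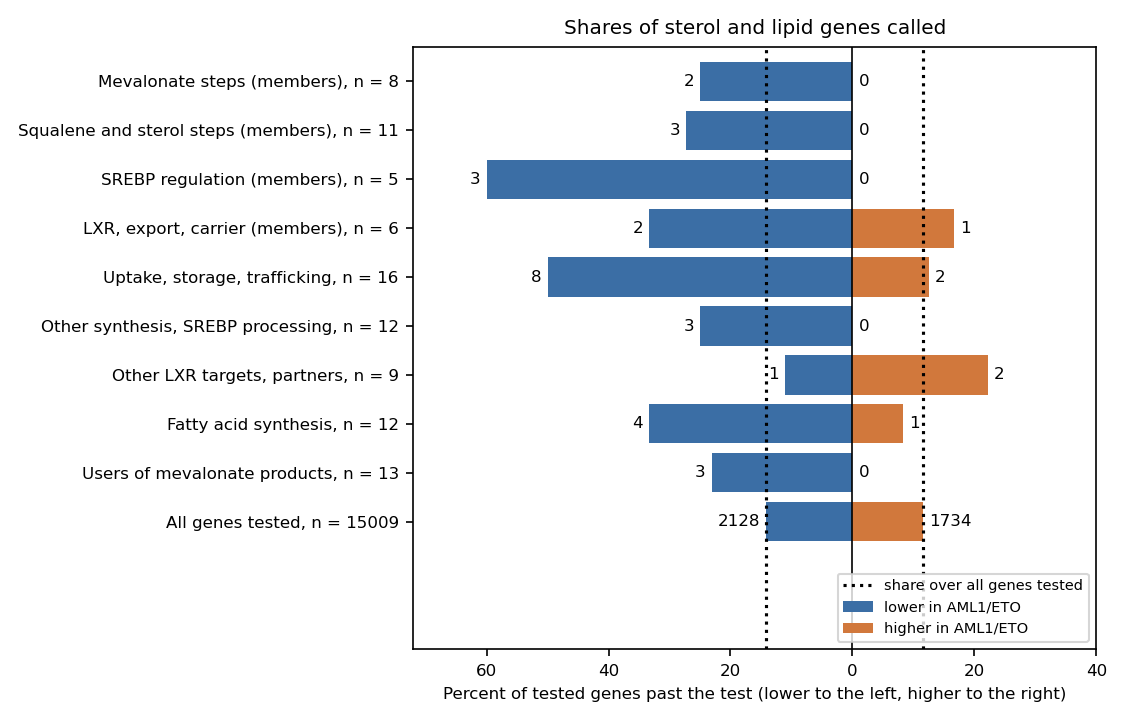
Percent of tested genes called lower (left) and higher (right) in AML1/ETO in the 4 roles of the cholesterol genes, in 5 further lipid lists and over all genes, with the number of genes at each bar and dotted lines at the share over all genes (14.2% and 11.6%). The lower share exceeds its line in every list but the LXR targets and partners, and the higher share exceeds its line in the LXR lists and, narrowly, in uptake, storage and trafficking.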

How the data were processed

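RNA-seq of sorted LSK cells gave 3 AML1/ETO and 5 Control libraries, grouped by the labels' titles and genotypes. The deposited values are raw read counts per Ensembl gene. The authors used HISAT2 2.0.5 and featureCounts 1.5.0-p3 with build mm10, per the submitters' processing notes; the annotation release, strand setting and treatment of multiply aligned reads are given neither there nor in the labels. Every sample column was used.

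Counts were tested as deposited with edgeR 4.0.16 in R 4.3.3 (filterByExpr, TMM factors, glmQLFit and glmQLFTest, two-sided, no covariate, all 8 libraries). Of 54532 genes, 32927 were at 0 in every library and 15009 were tested, with Benjamini-Hochberg adjustment over all of these. The biological coefficient of variation was 72.6%, which limits what 3 against 5 libraries can show. SE was derived from the F statistic. A group at 0 was given a floor of 3 reads per library, which covers counting error only. Exons and coordinates came from GENCODE M21 on GRCm38, the assembly of mm10 (54495 identifiers matched, 37 not), overlaps from the same annotation, near-identical transcripts from blastn 2.17.0, and promoters from RefSeq on GRCm38.p6. The method was also run on counts simulated from its fitted dispersions, with no zeros added to single libraries. Such a run cannot show how those zeros affect calls at low counts.

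The members and lists were chosen with earlier results of these data known. Named are all 30 cholesterol genes and up to 4 genes by smallest p in each further pathway list; some genes that this rule took are left out and not reported here. The naming rule took up to 3 genes by p in marker lists; other marker genes named here were picked with their values in view. Alternatives were DESeq2 1.42.0, limma-voom 3.58.1 with quality weights, 3 other scalings, 2 other filters, each library left out, both first libraries left out, a replicate block, and X and Y genes left out. No pair of libraries was identical, and Spearman's rho across genes within a group was 0.921 to 0.970.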

Additional observations from a re-analysis of the deposited data

Results flagged for a closer look

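Among 46 genes examined for a Control library that stands apart from the other Control libraries (a gap over 0.71 of the group's range), 3 met the threshold, where chance gives about 1 in 20. Srebf2 was high in Control 1 at 603 CPM, against 490 to 522 CPM in the other Control libraries. Fdps was high in Control 3 at 4.51 CPM, against 1.41 to 1.92 CPM in the others. Acaca was low in Control 3 at 30.1 CPM. AML1/ETO, with 3 libraries, was not examined in this way.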

How the results depend on the processing

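Of the 11 called cholesterol genes, 8 kept their calls in all 18 alternatives; Msmo1, Fdps and Nr1h2 did not. Of 536 log2 fold changes of the 30 genes under alternatives, 494 kept direction and side of the threshold, 15 passed newly, 7 no longer passed and 20 changed sign, all in genes that did not pass. The count of lower cholesterol genes was 10, with 8 to 13 over all alternatives and 10 to 12 with single libraries left out. The count of higher ones was 1; it was 2 with DESeq2, DESeq2 size factors, upper-quartile factors, no filter or a filter of 1 CPM, 0 with both first libraries left out, and 0 to 2 with single libraries left out (0 without AML1/ETO 1 or Control 5, 2 without AML1/ETO 2). Lower genes in the 5 other lists numbered 19, and 11 to 22 with single libraries left out (12 without AML1/ETO 3, 11 without Control 2, 12 without Control 5). With the replicate number as a replicate block, 951 genes were higher and 1098 lower, against 1734 and 2128 without it; among cholesterol genes 0 were higher and 8 lower, with adjusted p-values of 0.249 for Fdps, 0.0546 for Msmo1 and 0.163 for Nr1h2, and Pmvk turned to 0.29. Same-numbered libraries showed no clear shared deviation (correlations 0.058, -0.0451 and 0.0451), and not every library correlated best with its own number. With so few libraries this cannot exclude a shared batch. Both first libraries lay on the same side of the second principal component (92.1 for AML1/ETO 1 and 41.3 for Control 1). Whether the lost calls reflect a batch was not tested. With both first libraries left out, log2 fold changes turned to 0.20 for Mvd, 0.066 for Ebp, 0.052 for Scap and 0.13 for Insig2. With single libraries left out, log2 fold changes ran from -0.21 to 0.84 for Acat2, -0.38 to 0.13 for Pmvk, -2.12 to 0.47 for Mvd, -0.71 to 0.0090 for Ggps1, -0.0035 to 0.43 for Fdft1, -0.35 to 0.21 for Lss, -0.98 to 0.0029 for Ebp, -0.22 to 0.021 for Scap and -0.86 to 0.27 for Insig2. The cause of these changes was not tested. Scaling to library totals moved the median of all genes by -0.15 and the share of higher among called genes to 34.2%, against 44.9%; the count of cholesterol genes was then 10 lower and 1 higher. In the AML1/ETO libraries, genes with 20 to 50 predicted reads were at 0 in 41.4 to 51.1% of cases, against 10.5 to 46.2% in Control; Control 1 and Control 2, at 46.2% and 10.5%, had 16374232 and 16745356 reads, so library totals do not order these shares, and their cause was not tested.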
